A study of Mus musculus with 40 samples.

Results

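Sult2a1, Gcsh and Dct are 3 genes whose liver RNA differed between ovariectomized and castrated mice on placebo, and they are described here in 4 hormonal settings. They are 3 of the 10842 named genes on the array and were measured by 4 of its 23574 probes, namely every probe that the platform annotation gives to 1 of these symbols. The genes were chosen by their values in the placebo groups, with the other groups known. Sult2a1 (Entrez 20859) had 2 probes, 10024400425, which varied more over the arrays and stands for the gene, and 10024396094, called the second probe. Gcsh (Entrez 68133) and Dct (Entrez 13190) had 1 probe each, 10024394355 and 10024405817. The label under which the genes were grouped was a sex difference that survives gonadectomy. It fitted the values of Gcsh in all settings and those of Sult2a1 in all but DHT, where the sexes were close. Dct went against the label, since its sign on placebo was the opposite of its sign in intact mice.

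Livers were taken from 40 mice of the inbred laboratory strain C57BL/6J, with 8 groups and 5 animals in each. Ovariectomized females and castrated males carried a pellet of estradiol (0.5 mg, for about 300 pg/ml in plasma), of dihydrotestosterone (DHT, 5 mg, for 1 to 2 ng/ml) or of placebo, and the remaining groups were intact females and intact males. Gonads were removed at 8 weeks of age, the pellets were implanted at 12 weeks, and all mice were on chow with 4% fat and were killed at 14 weeks after 12 h without food. Whether intact mice had a pellet or sham surgery is not stated in the labels. Each liver was read on its own 2-colour array against a pool made of equal parts of RNA from all samples, so a log2 ratio of 0 is the level of the pool. All values below are log2 ratios of liver to pool, and all differences are differences of group means on that scale.

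SULT2A1 is a cytosolic sulfotransferase that moves sulfate from the donor PAPS to hydroxyl groups of steroids such as dehydroepiandrosterone and of bile acids, and in rodent liver it is known as a female-predominant enzyme. GCSH is the H protein of the mitochondrial glycine cleavage system, whose lipoyl arm carries the aminomethyl group between the other subunits. DCT, dopachrome tautomerase, is a melanosome enzyme that acts after tyrosinase in melanin synthesis and marks melanocytes, so it is not a usual hepatocyte gene. Estradiol acts through estrogen receptors, DHT acts through the androgen receptor and cannot be aromatized to an estrogen, and the sex-specific pattern of growth hormone secretion is known to set many sex differences of rodent liver.

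The start regions of the genes were searched for the binding motifs of both receptors. Promoter sequences, from 250 bases before to 50 bases after the start, were in the RefSeq table (GRCm38.p6) for Gcsh and Dct, but not for Sult2a1. Capitals mark the E-box CATGTG, or CACATG read on the other strand, the core that the melanocyte factor MITF is known to bind.
Gcsh, chr8:116993449-116993748, minus strand: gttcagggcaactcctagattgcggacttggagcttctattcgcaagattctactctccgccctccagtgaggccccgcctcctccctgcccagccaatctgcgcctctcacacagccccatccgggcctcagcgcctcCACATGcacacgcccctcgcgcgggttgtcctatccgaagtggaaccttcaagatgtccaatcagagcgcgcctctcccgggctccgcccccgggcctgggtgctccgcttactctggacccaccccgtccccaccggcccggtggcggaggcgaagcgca
Dct, chr14:118052197-118052496, minus strand: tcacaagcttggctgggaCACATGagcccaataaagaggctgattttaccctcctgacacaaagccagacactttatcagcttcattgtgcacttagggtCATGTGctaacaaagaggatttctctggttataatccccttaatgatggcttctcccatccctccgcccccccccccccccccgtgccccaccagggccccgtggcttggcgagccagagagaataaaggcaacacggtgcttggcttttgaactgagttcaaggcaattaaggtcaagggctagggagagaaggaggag
The estrogen response element, searched as the half-site GGTCA, 3 free bases and the reverse complement of the half-site, had 0 matches in either promoter, and 23 of 32851 promoters of this length (0.07%) held it. The androgen response element, searched with the half-site AGAACA in the same arrangement, had 0 matches in both, and 3 promoters (0.00913%) held it. The E-box occurred once in the Gcsh promoter and at 2 places in that of Dct, and 14.2% of all promoters held at least 1. Since so few promoters held either receptor motif, 0 matches is what nearly any promoter would give and says nothing about these genes. Both strands were searched, matches are of letters only, and distal sequence was not searched.

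Over the arrays, medians ran from -0.04 to 0.04, no pair of arrays held identical values and the highest correlation between 2 arrays was 0.758. The Y-linked gene Eif2s3y lay below every male in each of the 20 females, with differences between -6.73 and -5.44 over the 4 settings, so the sex label of every animal matched. A pair of animals given DHT stood apart from their groups. An index of the DHT response, the mean of 139 probes that were higher on DHT than on placebo in castrated males minus the mean of 84 that were lower (limma adjusted p under 0.05, at least 1.5-fold), was -0.27 in ovariectomized animal 53, against 1.03 to 1.21 in the other 4 ovariectomized females on DHT and -1.0 to -0.55 in those on placebo. In castrated animal 61 it was 0.04, against 1.12 to 2.00 in the other 4 castrated males on DHT and -1.18 to -0.68 in those on placebo. The index was chosen after the data were seen and its probes were chosen in the castrated males themselves, so their values describe how its probes were picked. Several results of the described genes that rest on these animals are given with and without them. Other differences on DHT are given with them only, among them those against placebo by sex and those of the listed genes. Why these animals stood apart was not tested.

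The choice of the genes rests on the placebo groups. In ovariectomized against castrated mice on placebo, 16 probes passed an adjusted p of 0.05 in limma (0.0679% of all), 4 of them the probes described here. Gcsh ranked 6th, the probes of Sult2a1 9th and 11th, and Dct 14th. The last probe inside the threshold differed by -0.51, the first outside by 0.67, and both carry no gene name. The other named genes of the 16 were the Y-linked Eif2s3y, Kdm5d, Ssty1 and Gm20747, and Impg1, an interphotoreceptor matrix proteoglycan. Of the 16 probes, all 16 had the same sign on estradiol and on DHT, and 15 had it in intact mice, the exception being Dct. Since the placebo contrast chose the genes and the intact one was known, both are given below without a test.

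**Figure D1:**
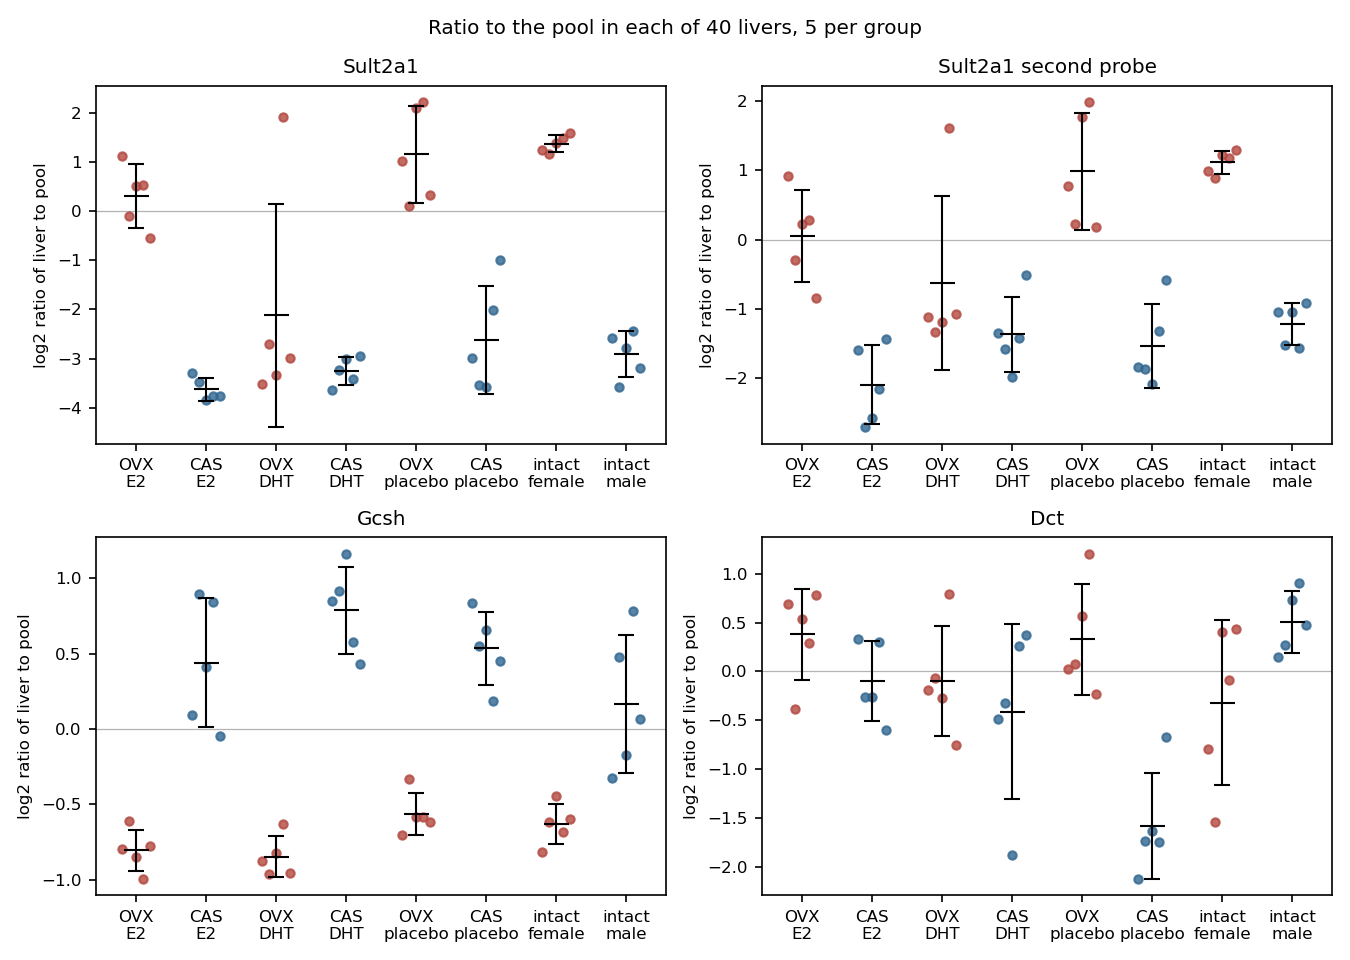
Log2 ratio of liver to pool (y axis) in each of the 40 livers for the 4 probes, with ovariectomized (OVX) or intact females in red and castrated (CAS) or intact males in blue, and with the mean and SD of each group of 5. Sult2a1 lay higher in all females than in all males of each setting except DHT, Gcsh lay lower in all 20 females than in all 20 males, and Dct was lowest in castrated males on placebo.

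Sult2a1 RNA was high in females and low in males on estradiol, on placebo and with gonads intact, and under DHT 4 of 5 ovariectomized females lay at the male level. On estradiol, the 5 ovariectomized females had log2 ratios of 1.12, -0.10, 0.50, 0.53 and -0.56, against -3.28, -3.48, -3.85, -3.76 and -3.76 in the 5 castrated males. Every female lay above every male, and the castrated males on estradiol had the lowest mean of the 8 groups. The difference was 3.92 ± 0.61 (SE, 95% interval 2.69 to 5.16), a 15.2-fold higher level in ovariectomized females (limma, adjusted p = 0.000382). An exact permutation test over the 10 animals, two-sided, gave p = 0.00794, the smallest it allows.

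Under DHT the sexes overlapped. The 5 ovariectomized females had -3.51, -2.70, -3.33, 1.90 and -2.98, against -3.64, -3.24, -3.0, -3.43 and -2.96 in the 5 castrated males. Animal 53, at 1.90, was the only female on DHT far above the males, and the other 4 lay among or just above them. The difference was 1.13 ± 0.61 (SE, 95% interval -0.10 to 2.36, limma adjusted p = 0.621), and without animal 53 it was 0.12. The mean of the ovariectomized females was -2.12 ± 2.27 (SD, n = 5) with that animal and -3.13 ± 0.36 (SD, n = 4) without it, against -3.25 ± 0.29 (SD, n = 5) in castrated males.

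The sex difference on estradiol minus that on DHT was 2.80 ± 0.86 for Sult2a1 and missed the threshold (limma, adjusted p = 0.344). In this comparison 0 of 23574 probes passed (0%), while 2671 had an unadjusted p under 0.05. Without animal 53 the same quantity was 3.80 ± 0.55 (limma, adjusted p = 0.00034), and without animals 53 and 61 it was 3.74 (adjusted p = 0.00119). Animal 53 was singled out after the data were seen. Leaving out its high value can only raise this quantity, so these p-values are no test of it. The other 19 of 20 single omissions left the quantity short of the threshold.

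On placebo, ovariectomized females had 1.02, 0.10, 2.09, 2.21 and 0.33, against -2.99, -3.53, -3.59, -2.02 and -1.01 in castrated males. With gonads intact, females had 1.24, 1.15, 1.39, 1.49 and 1.58, against -2.58, -3.57, -2.78, -2.44 and -3.20 in males. The groups did not overlap in either setting, and both placebo groups spread more widely than both intact groups. The differences were 3.77 ± 0.61 on placebo and 4.28 ± 0.61 in intact mice (SE), or 13.7-fold and 19.4-fold.

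Within females, Sult2a1 was higher on estradiol than on DHT by 2.42 ± 0.61 (5.36-fold, limma adjusted p = 0.0171). This call rested on single animals. Without animal 53 the difference was 3.43 (adjusted p = 1.1e-06), whereas leaving out animal 36 of the estradiol group or animal 50, 52 or 54 of the DHT group gave 2.08 to 2.36 with adjusted p from 0.0611 to 0.0711, and a fit to these groups alone gave an adjusted p of 0.227. Of the 9 measured markers of Kupffer cells and macrophages, 7 were also higher on estradiol than on DHT in females, where 3.79% of all probes passed, among them Marco by 2.49, Adgre1 by 1.63 and Csf1r by 1.35, with a mean over the 9 that ran from -0.24 to 1.53 in the estradiol animals and from -0.77 to -0.29 in the DHT animals. Their part in the Sult2a1 difference was not tested, and in whole liver fewer cells of a type and less RNA per cell cannot be told apart. Between the sexes on estradiol the same 9 markers had a median difference of 0.50 and 0 passed, near the 0.136% of all probes that did. Within castrated males the difference of estradiol and DHT in Sult2a1 was -0.37 ± 0.61 (95% interval -1.61 to 0.86, adjusted p = 0.802).

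As the mean of both sexes, Sult2a1 was lower on DHT than on placebo, with a difference of -1.95 ± 0.43 (3.86-fold lower, limma adjusted p = 0.00355), and the difference passed without each animal in turn, at -2.45 to -1.75. By sex, the difference of DHT and placebo was -3.27 in ovariectomized females and -0.63 in castrated males, whose placebo values were already low. These values by sex share the placebo animals with the choice of the genes and are given without a test. For estradiol and placebo the mean of both sexes was -0.93 ± 0.43 (adjusted p = 0.232), with -0.85 in females and -1.0 in males. Gonadectomy with placebo against intact mice gave 0.03 ± 0.43 (95% interval -0.84 to 0.90, adjusted p = 0.98), and the sign turned with other scalings of the arrays, down to -0.51 after quantile normalization. Both hormone comparisons use the same placebo animals.

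The second probe of Sult2a1 had sex differences of the same sign as the first in all 4 settings, each of them smaller. Among the male groups the probes did not share 1 order: DHT minus placebo in castrated males was 0.17 on the second probe and -0.63 on the first, castrated males on placebo minus intact males -0.32 and 0.29, and estradiol minus DHT in castrated males -0.72 and -0.37. On estradiol it gave 0.92, -0.29, 0.23, 0.28 and -0.85 in ovariectomized females, against -1.59, -2.71, -2.57, -2.16 and -1.44 in castrated males, and the groups did not overlap. The difference was 2.15 ± 0.42 (4.45-fold higher in females, limma adjusted p = 0.0112). It missed the threshold without animal 33 or without animal 36, at limma adjusted p of 0.0501 and 0.0505. It also missed the threshold when arrays were scaled to the same median absolute deviation (adjusted p = 0.129), with array weights (0.0707) and in a fit to these groups alone (0.057). Under DHT the females had -1.12, -1.33, -1.20, 1.62 and -1.08, against -1.35, -1.58, -1.99, -1.43 and -0.51 in the males, with animal 53 again the single high value. The difference there was 0.75 (adjusted p = 0.627).

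On placebo the second probe gave a female minus male difference of 2.53, and in intact mice 2.34. Its difference of DHT and placebo over both sexes was -0.72 (limma, adjusted p = 0.176), and without animal 53 it was -1.0 (adjusted p = 0.0066). The other 19 of 20 single omissions left this difference short of the threshold. Over the 40 arrays both probes correlated at r = 0.948, and their deviations from the group means at r = 0.857. This is a description: both read the same RNA on the same arrays, and animal 53, high on both, weighs heavily in the deviations. The 4 unnamed probes that were higher in females on placebo also had their smallest sex difference on DHT and their largest in intact mice, with 5.64 on estradiol, 1.77 on DHT, 5.14 on placebo and 6.85 in intact mice for 1 of them.

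**Figure D2:**
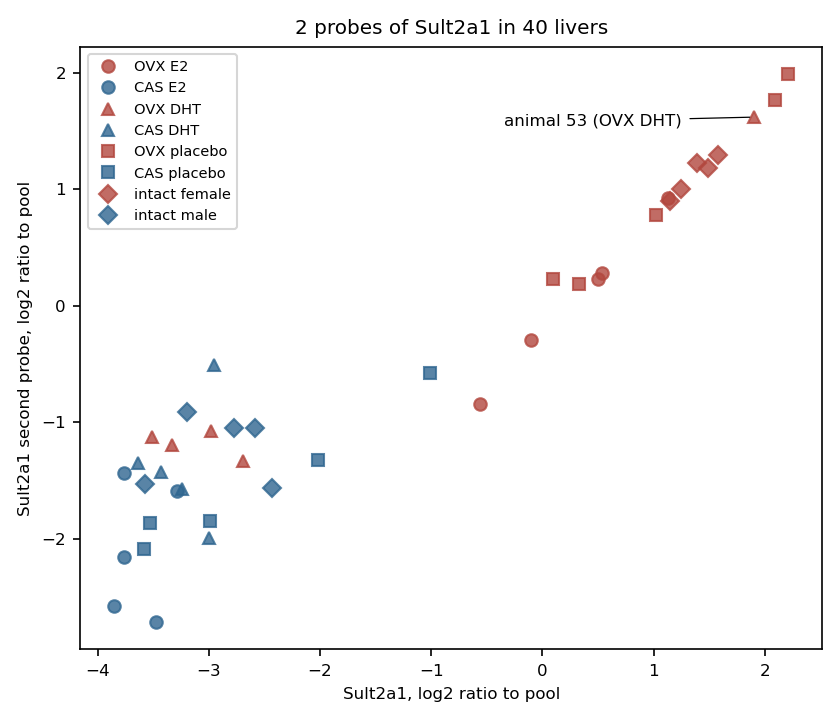
Log2 ratio of the second Sult2a1 probe (y axis) against the first (x axis), 1 point per liver, females in red, males in blue and the treatment by shape. Animal 53, an ovariectomized female on DHT, lay at 1.90 and 1.62 among the females on placebo and the intact females, while the other 4 of its group lay among the males.

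Ordered by group mean, Sult2a1 ran from intact females at 1.37 ± 0.17, through ovariectomized females on placebo at 1.15 ± 0.98 and on estradiol at 0.30 ± 0.65, to ovariectomized females on DHT at -2.12 ± 2.27. Below these came castrated males on placebo at -2.62 ± 1.10, intact males at -2.91 ± 0.47, castrated males on DHT at -3.25 ± 0.29 and castrated males on estradiol at -3.63 ± 0.24 (all SD, n = 5). Each group overlapped its neighbours in this order, but without animal 53 the ovariectomized females on estradiol and on DHT did not overlap. Of the 20 females, 16 lay above every male, and the 4 that did not were the DHT animals other than animal 53.

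Gcsh RNA, as read by its single probe, was lower in females than in males in all settings, whatever pellet they carried. Whether this probe also binds another transcript was not checked. On estradiol the ovariectomized females had -0.80, -0.61, -0.85, -0.99 and -0.78, against 0.09, 0.89, 0.41, 0.84 and -0.05 in castrated males. On DHT the ovariectomized females had -0.88, -0.96, -0.82, -0.63 and -0.95, against 0.85, 0.92, 1.16, 0.58 and 0.43 in castrated males. The groups did not overlap on either hormone, and the female values were the tighter ones. The differences were -1.24 ± 0.17 on estradiol (95% interval -1.58 to -0.90, 2.37-fold lower in females, limma adjusted p = 3.2e-05) and -1.64 ± 0.17 on DHT (95% interval -1.98 to -1.29, 3.11-fold lower, adjusted p = 8.88e-08). The exact permutation test, two-sided, gave p = 0.00794 on each hormone, the smallest it allows.

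On placebo, Gcsh had -0.70, -0.33, -0.59, -0.58 and -0.62 in ovariectomized females, against 0.83, 0.55, 0.66, 0.18 and 0.45 in castrated males. In intact mice the values were -0.82, -0.62, -0.45, -0.68 and -0.60 in females, against -0.33, 0.48, -0.17, 0.78 and 0.06 in males. Intact males came nearest to the females, and the lowest of them, at -0.328, lay just above the highest of all females, at -0.330. The female minus male differences were -1.10 ± 0.17 on placebo (2.14-fold) and -0.80 ± 0.17 in intact mice (1.74-fold).

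No difference between hormones passed for Gcsh. The sex difference on estradiol minus that on DHT was 0.39 ± 0.24 (95% interval -0.09 to 0.87, limma adjusted p = 0.485). Estradiol minus DHT was 0.04 in ovariectomized females (adjusted p = 0.939) and -0.35 ± 0.17 in castrated males (adjusted p = 0.383). Against placebo over both sexes it was -0.17 for estradiol (adjusted p = 0.474) and -0.02 for DHT (adjusted p = 0.96). Gonadectomy with placebo minus intact was 0.22 ± 0.12 (adjusted p = 0.351). These p-values do not show that the levels were equal.

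Gcsh lowest to highest was ovariectomized females on DHT at -0.85 ± 0.14 and on estradiol at -0.81 ± 0.14, intact females at -0.63 ± 0.13, ovariectomized females on placebo at -0.56 ± 0.14, then intact males at 0.17 ± 0.46 and castrated males on estradiol at 0.44 ± 0.43, on placebo at 0.53 ± 0.24 and on DHT at 0.79 ± 0.29 (SD, n = 5). Neighbours of the same sex overlapped. All 20 females lay below all 20 males, which was true of 7 probes of 23574 (0.0297%), always with the females lower. The sexes were separate in the same direction in all 4 settings for 8 probes (0.0339%), and on both hormones for 15 (0.0636%), Gcsh among them in each case. The counts over all animals and over all 4 settings include the placebo animals on which Gcsh was chosen and the intact ones, which were known. The place of Gcsh in those counts is thus partly set by the choice, and only the count on both hormones leaves those animals out. The hormone groups too were known when the genes were chosen, so that count is no independent check. Of the 6 named probes among the 7, 4 are Y-linked in RefSeq, and Gcsh and Impg1 are not.

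**Figure D3:**
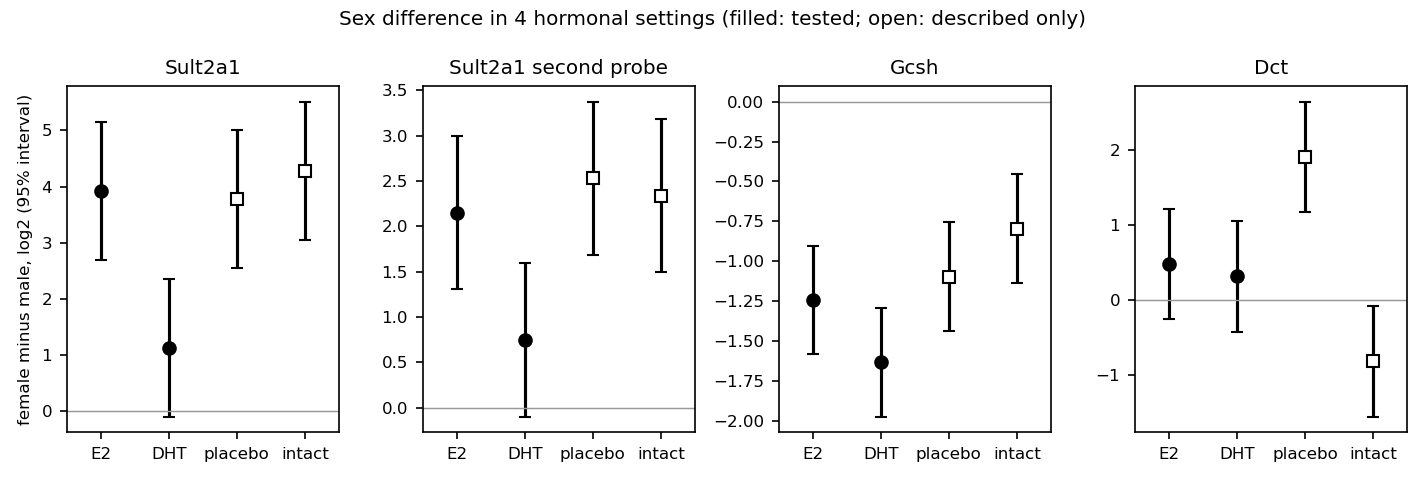
Female minus male difference in log2 ratio (y axis, with 95% interval from limma) for the 4 probes on estradiol, DHT, placebo and with gonads intact, where filled points were tested and open squares are described only. For Sult2a1 the difference on DHT was 1.13, against 3.92 on estradiol, for Gcsh all 4 lay below 0, and for Dct the placebo difference of 1.90 stood opposite the intact one of -0.82.

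Dct did not keep 1 direction. On estradiol the ovariectomized females had 0.69, -0.39, 0.53, 0.29 and 0.78, against 0.34, -0.26, -0.26, 0.30 and -0.60 in castrated males. On DHT the ovariectomized females had -0.19, -0.06, -0.27, 0.79 and -0.76, against -0.49, -0.32, -1.88, 0.26 and 0.37 in castrated males. The sexes overlapped on both hormones, and the single low male on DHT was animal 61. The differences were 0.48 ± 0.36 on estradiol (95% interval -0.26 to 1.22, limma adjusted p = 0.893) and 0.31 ± 0.36 on DHT (95% interval -0.43 to 1.05, adjusted p = 0.742), which turned to -0.05 without animal 61. The exact permutation p, two-sided, was 0.119 on estradiol and 0.579 on DHT.

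On placebo, Dct had 0.02, 0.08, 0.56, 1.20 and -0.23 in ovariectomized females, against -2.12, -1.73, -1.62, -1.74 and -0.67 in castrated males. In intact mice it had -0.79, -1.54, 0.40, -0.09 and 0.43 in females, against 0.14, 0.27, 0.73, 0.90 and 0.47 in males. On placebo the females all lay above the males, while in intact mice the sexes overlapped and the mean was lower in females. The differences were 1.90 ± 0.36 on placebo (3.74-fold) and -0.82 ± 0.36 in intact mice (SE).

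The placebo difference of Dct lay with the castrated males, whose mean of -1.58 ± 0.54 was the lowest of all groups. Castrated males on placebo were below intact males by -2.08, without overlap, and castrated males on estradiol were above those on placebo by 1.48, also without overlap. For DHT minus placebo in castrated males the value was 1.17, and animal 61, at -1.88, lay within the placebo range. These 3 differences use the placebo animals on which the gene was chosen and carry no test. Over both sexes, estradiol minus placebo was 0.77 ± 0.26 (limma, adjusted p = 0.0767), DHT minus placebo 0.37 (adjusted p = 0.507) and gonadectomy minus intact -0.72 ± 0.26 (adjusted p = 0.101). The estradiol difference passed without animal 19, 28 or 34, at 0.86 to 0.88, and missed the threshold in the other 17 of 20 single omissions. The gonadectomy difference passed without animal 2 or 28, at -0.87 and -0.83, and missed it in the other 18 of 20. These means over both sexes use the placebo animals too, but add the sexes where the choice subtracted them.

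Dct group means ran from castrated males on placebo at -1.58, castrated males on DHT at -0.41 ± 0.90, intact females at -0.32 ± 0.84, ovariectomized females on DHT at -0.10 ± 0.56 and castrated males on estradiol at -0.10 ± 0.40 to ovariectomized females on placebo at 0.33 ± 0.57 and on estradiol at 0.38 ± 0.47, with intact males highest at 0.50 ± 0.31 (SD, n = 5). Every neighbouring pair overlapped, that of castrated males on placebo and on DHT only through animal 61, since the other 4 on DHT began at -0.49 and the highest on placebo was -0.67. The SDs within groups were larger than the median residual SD over all probes, which was 0.15. Without animal 61, the castrated males on DHT averaged -0.04 ± 0.42 (SD, n = 4).

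**Figure D4:**
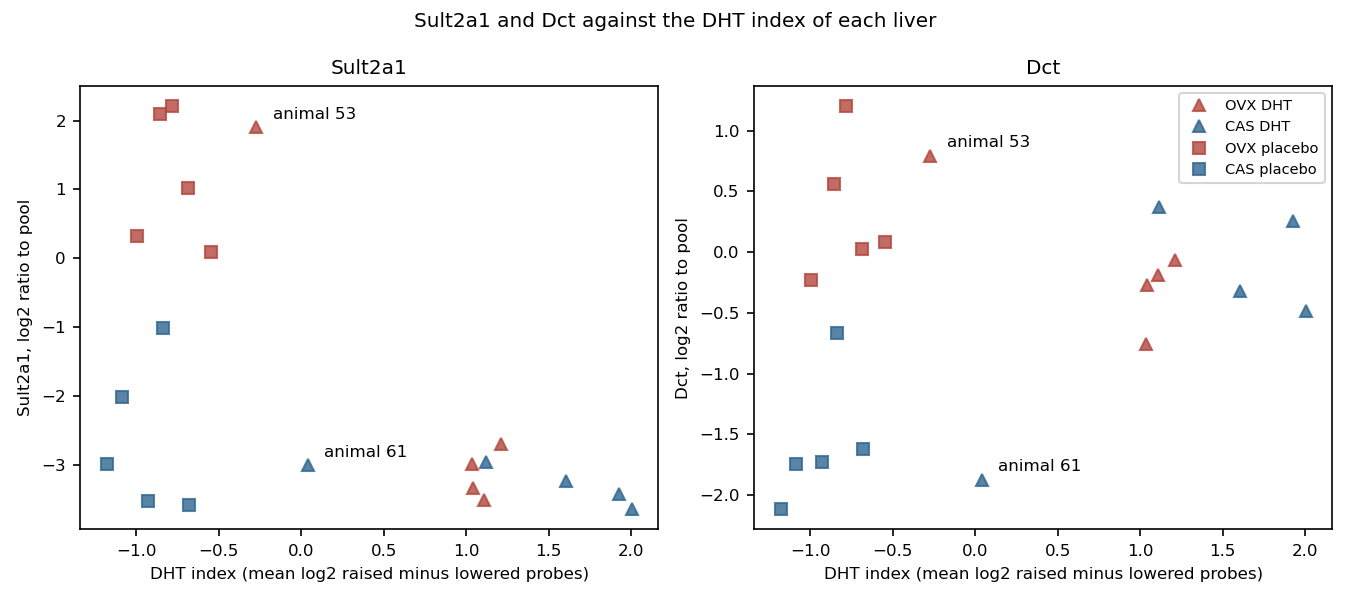
Log2 ratio of Sult2a1 (left) and Dct (right) against the DHT index of each liver (x axis, mean log2 of raised minus lowered probes) in the 10 DHT and the 10 placebo animals, ovariectomized in red and castrated in blue. Animals 53 and 61 had the lowest index of the DHT animals, and lay at 1.90 for Sult2a1 and at -1.88 for Dct.

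Across the 4 probes, 3 of 4 passed for the sex difference on estradiol, where 0.136% of all probes passed, and 1 of 4, Gcsh, on DHT, where 0.0806% did. Both Sult2a1 probes are among the 3 and are not independent of each other. The genes were chosen with the hormone and intact groups known, so these counts against the shares of all probes are no test. For estradiol minus DHT, 1 of 4 passed in females (3.79% of all probes) and 0 of 4 in males (0.708%). Over both sexes, 0 of 4 passed for estradiol minus placebo (4.83%), 1 of 4 for DHT minus placebo (5.28%) and 0 of 4 for gonadectomy minus intact (5.98%). Sexes did not overlap for 3 of 4 probes on estradiol (1.02% of all probes), 1 of 4 on DHT (1.97%), 4 of 4 on placebo (1.47%, the contrast of the choice) and 3 of 4 in intact mice (6.74%, known at the choice).

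Of 31 listed sulfation genes, Sult2a1 and 15 others were measured. The 15 gave 0 calls for sex on estradiol, with a range from -0.44 to 0.43, or on DHT, with a range from -0.13 to 0.35. The median difference was -0.05 on estradiol and 0.02 on DHT, against 0.00 and -0.02 over all probes. A count of 0 is near the share of all probes that passed there, 0.136% on estradiol and 0.0806% on DHT, and says nothing about the list. For DHT minus placebo, where 5.28% of all probes passed, 3 of the 15 were higher and 3 lower. Sult3a1, a sulfotransferase that in mouse is known as female-predominant, was lower by -3.05 (limma, adjusted p = 2.34e-05), and another probe of it by -0.37. Sult1a1, a phenol sulfotransferase, was lower by -0.59, and Sult1c2 by -0.47. The lysosomal arylsulfatase gene Arsa was higher by 0.88, Sult5a1 by 0.50 and Bpnt1, which breaks down a by-product of sulfation, by 0.19. Papss1 and Papss2, which make the sulfate donor, gave 0.03 and -0.09 and did not pass.

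For Sult3a1, the sulfation gene with the largest DHT difference, the female minus male difference was 0.43 on estradiol and 0.14 on DHT, neither past the threshold. It was 1.24 on placebo and 5.08 in intact mice. The other probe of the gene gave 0.92, -0.10, 0.63 and 0.86 in the same order. Sult3a1 was higher on estradiol than on DHT by 4.47 in ovariectomized females and by 4.17 in castrated males (limma, adjusted p = 0.000171 and 0.000675), and its other probe by 1.54 and 0.52. In animal 53 it lay at 0.95, against -4.87 to -3.89 in the other 4 ovariectomized females on DHT.

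**Figure D5:**
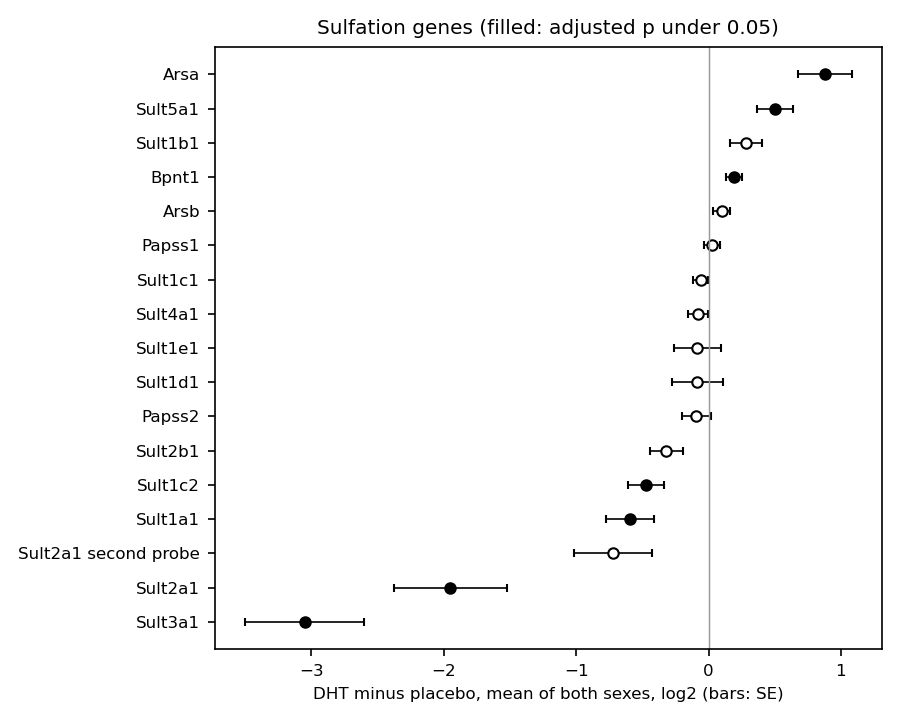
DHT minus placebo as the mean of both sexes (x axis, log2, bars are SE) for Sult2a1, its second probe and the 15 other measured sulfation genes, filled where the limma adjusted p was under 0.05. Sult3a1 at -3.05 and Sult2a1 at -1.95 were the lowest and Arsa at 0.88 the highest.

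Genes of bile acid conjugation and transport and of the receptors linked to them were measured for 25 of 29 listed, and 0 passed for sex on estradiol or on DHT, again near the share of all probes. For estradiol minus DHT in females, where 3.79% of all probes passed, 2 were higher, the transcription factors Cux2 by 1.54 and Stat5a by 0.81, and 2 were lower, the organic anion transporter Slco1a1 by -1.28 and the fatty acid receptor Ppara by -0.66. Slco1a1 was higher on DHT than on placebo by 1.19, and Abcb11, the bile salt export pump, was lower by -0.40.

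Of 26 listed genes of glycine cleavage, serine and one-carbon metabolism, Gcsh and 14 others were measured, with female minus male differences from -0.16 to 0.20 on estradiol and from -0.24 to 0.44 on DHT. None of the 14 passed, a count near the 0.136% and 0.0806% of all probes that did. Gldc, the glycine decarboxylase that loads the H protein, gave 0.18 on estradiol and 0.44 on DHT (limma, adjusted p = 0.906 and 0.57). It was lower on DHT than on placebo by -0.55 ± 0.10 (adjusted p = 0.000659), and it was the only 1 of the 14 to pass there, where 5.28% of all probes did. Dld, the dehydrogenase shared with other lipoate enzymes, gave -0.14 on estradiol and 0.23 on DHT. Of 16 listed genes of lipoate attachment and lipoate enzymes, Gcsh and 6 others were measured and none of the 6 passed for sex on estradiol or DHT.

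Of 19 listed genes of pigment formation, Dct and 17 others were measured. In the 8 tested contrasts, where 0% to 5.98% of all probes passed, 0 of the 17 did, with sex differences from -0.14 to 0.25 on estradiol and from -0.22 to 0.36 on DHT. Tyr, which makes the precursor of dopachrome, gave -0.02 on placebo and Tyrp1, the related melanosome oxidase, 0.00, where Dct gave 1.90. The mean of the 5 measured melanocyte markers lay between -0.08 and 0.18 in every animal. Mif, of the unrelated D-dopachrome tautomerase family, was lower on estradiol than on placebo by -0.37 (limma, adjusted p = 0.0252). The 9 measured hepatocyte markers had median sex differences of 0.08 on estradiol and -0.01 on DHT, and 0 of the 9 passed. That count is near the share of all probes that passed, 0.136% on estradiol and 0.0806% on DHT.

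In the order of genes in RefSeq (GRCm38.p6), both nearest neighbours of Sult2a1 and most of the next ones are other Sult2a genes, which were not among the named probes, so only Cabp5 could be read there, at -0.01 on estradiol and -0.06 on DHT. The 6 measured neighbours of Gcsh, among them Pkd1l2 and Bco1, had female minus male differences from 0.06 to 0.27 on estradiol and from -0.21 to 0.13 on DHT. For Dct the 6 measured neighbours, among them Gpc6 and Gpr180, ranged from -0.15 to 0.15 over all 4 settings. None of the measured neighbours passed on estradiol or DHT, a count near the 0.136% and 0.0806% of all probes that did. The probes' own sequences were not used here, so whether a probe also binds a related transcript, such as those of the other Sult2a genes, was not checked.

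Likeness over the 40 arrays was measured with Pearson's r and describes arrays that share a pool and 8 group means. For Sult2a1 the nearest genes were St3gal6 (0.789), Hao2 (0.774), P2ry14 (0.773), Tenm3 (0.745) and A1bg (0.739), and for deviations from the group means Hao2 (0.825), St3gal6 (0.733) and Slc22a27 (0.729). Animal 53, at 1.90 against a group mean of -2.12, weighs heavily in these deviations, and r without it was not computed. St3gal6 encodes a sialyltransferase and Hao2 a peroxisomal hydroxyacid oxidase. For Gcsh they were Ssty1 (0.935), Impg1 (0.867), Eif2s3y (0.865), Kdm5d (0.776) and Nsg2 (0.657), of which Ssty1, Eif2s3y and Kdm5d are Y-linked. Its deviations were nearest to Tgm4 (0.844), Mad1l1 (0.827) and Pnck (0.816). For Dct the likeness was weaker, with Msrb2 (0.635), Nln (0.619), H3c4 (0.614), Smyd3 (0.603) and Pepd (0.582), and for deviations Acss2 (0.658), Rhbg (0.647) and Hps5 (0.637).

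Among the 20 males alone, deviations of Gcsh from the group means ran with those of Ssty1 (r = 0.738) and Impg1 (r = 0.598), and opposite to those of Eif2s3y (r = -0.738) and Kdm5d (r = -0.794). The same quantities over all 40 livers were 0.635, 0.506, -0.371 and -0.347. Of the 5 measured genes in the Y-linked list, 3 were lower in females in each of the settings, with Ssty1 at -1.18 on estradiol, -1.21 on DHT, -1.05 on placebo and -0.81 in intact mice. The differences of Gcsh in the same 4 settings were -1.24, -1.64, -1.10 and -0.80. Eif2s3x, an X-linked gene known to escape X inactivation, was higher in ovariectomized females on DHT by 0.73 (limma, adjusted p = 0.000953), where 0.0806% of all probes passed. It did not pass on estradiol, and no other measured gene of the list of such escape genes passed in any contrast.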

How the data were processed

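RNA of 40 livers was labelled with Cy5 and read against a Cy3-labelled pool on 2-colour arrays, per the labels, with no dye swap. The deposited table holds log10 ratios (Cy5 over Cy3) for 23574 probes with 0 missing values, limited to 2 in size. The authors' background subtraction and normalization are not given in the sources used here. That the values are log10 and that female over male runs in the direction given were read from the values, since the linear ratio of each described probe averaged 0.994 to 1.03 over the 40 arrays, as a pool of equal parts requires, and since the Y-linked Eif2s3y was low in females. Signal over background was unknown, so whether low values, such as those of Sult2a1 in males, lay near the limit of detection could not be judged. The number of arrays limits the precision.

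Values were multiplied by 3.32 to give log2 ratios. A limma 3.58.1 model (lmFit, eBayes, R 4.3.3) with 8 group means was fitted to all probes and 40 arrays, with 32 residual degrees of freedom, no covariate, and Benjamini-Hochberg adjustment over all 23574 probes within each of 8 contrasts at a threshold of 0.05. Each p is two-sided. Exact permutation tests, by full enumeration with numpy 2.4.6, exchanged animals between the 2 groups compared, and within each sex for the contrasts over both sexes. Their p carries no adjustment over probes. The fit was tested on simulated data. A total of 12662 probes carry 1 gene name found in the mouse RefSeq table, and for genes with several probes the probe with the largest SD stands for the gene.

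The genes named are every probe of Sult2a1, Gcsh and Dct, the 5 and 3 genes most like each by Pearson's r, the genes past the placebo threshold, list members that passed or lay furthest out, and Eif2s3y and Kdm5d. The genes and the lists were chosen with earlier results of these data known. Animals are as the labels number them, each in 1 group. The labels name no batch or date that could be tested. Alternatives were other scalings, array weights, other variance priors, a filter on flat probes, fits to only the groups compared, the mean of the probes, and leaving out animals.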

Additional observations from a re-analysis of the deposited data

Results flagged for a closer look

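The first probe of Sult2a1 read 1.90 in animal 53 of the ovariectomized females on DHT, where the other 4 animals lay between -3.51 and -2.70. The gap to its nearest neighbour was 0.849 of the whole range of the group, above Dixon's critical value of 0.71 for 5 samples. The second probe read 1.62 in the same animal, with the others between -1.33 and -1.08 and a gap of 0.912 of the range. A total of 32 sets of 5 animals were looked at in this way, and chance flags about 1 in 20 of them. Both values come from 1 liver and are not independent of each other.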

How the results depend on the processing

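No paired analysis was possible because every animal number occurs in 1 group. Variance priors with trend and robust fitting and a filter on flat probes left the direction and the side of the threshold of the 32 tested differences as they were. The differences that did move are given here in log2 units, and the cause was not tested except where fewer animals entered.

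For Sult2a1, quantile normalization moved estradiol minus placebo past the threshold at -1.41, and the exact permutation test of the same -0.93 gave p = 0.0175, which carries no adjustment over probes, unlike the limma p it is set against. Estradiol minus DHT in females missed it in a fit to these groups alone (2.42) and as the mean of both probes (1.55). Gonadectomy minus intact turned to -0.51 with quantile normalization, -0.19 with scaling to 1 median absolute deviation (MAD), -0.21 with array weights and -0.10 as the mean of probes, and the intact sex difference was 3.72, 3.83 and 3.31 with quantile normalization, MAD scaling and the mean of probes. For Gcsh, array weights moved estradiol minus DHT in males (-0.46) and gonadectomy (0.33) past the threshold, and quantile normalization gave -1.31 on placebo. For Dct, array weights (0.93) and a fit to the groups alone (0.77) moved estradiol minus placebo past it, as array weights did for gonadectomy (-0.84), and the exact test of the same 0.77 gave an unadjusted p = 0.0148. Without animals 53 and 61, a setting chosen after seeing the data, Sult2a1 by hormone passed at 3.74, and Dct turned to -0.28 for sex on DHT and to -0.051 for estradiol minus DHT in males. The mean of probes gave no value for Gcsh and Dct, with 1 probe each.

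Leaving out each animal in turn, Sult2a1 ranged from 3.72 to 4.14 for sex on estradiol, 0.12 to 1.47 on DHT, 2.45 to 3.80 by hormone, 2.08 to 3.43 for estradiol minus DHT in females, -0.47 to -0.30 in males, -1.06 to -0.72 for estradiol minus placebo, -2.45 to -1.75 for DHT minus placebo, -0.17 to 0.17 for gonadectomy, 3.51 to 4.18 for sex on placebo and 4.12 to 4.40 in intact mice. In the same order Gcsh ranged from -1.36 to -1.13, -1.72 to -1.54, 0.27 to 0.51, -0.0056 to 0.10, -0.46 to -0.23, -0.23 to -0.11, -0.063 to 0.028, 0.16 to 0.30, -1.19 to -1.02 and -0.92 to -0.64. Dct ranged, in that order, from 0.35 to 0.67, -0.053 to 0.51, -0.032 to 0.53, 0.31 to 0.70, -0.051 to 0.51, 0.70 to 0.88, 0.26 to 0.55, -0.87 to -0.62, 1.69 to 2.13 and -1.01 to -0.52.

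Counts of probes past the threshold moved most with array weights, which gave 77 for sex on estradiol (32 as reported), 1310 on DHT (19), 1712 by hormone (0), 3075 for estradiol minus DHT in females (893) and 1877 in males (167), 2895 and 3946 for estradiol and DHT minus placebo (1138 and 1244), 3782 for gonadectomy (1410), 39 for sex on placebo (16) and 5443 in intact mice (2048). Fits to the groups alone gave 13 for sex on estradiol, 270 and 8 for estradiol minus DHT in females and males, 611 for estradiol minus placebo, 31 on placebo and 1249 in intact mice. MAD scaling gave 1 by hormone, 1619 and 104 for estradiol minus DHT in females and males, 795 for gonadectomy and 1327 in intact mice, quantile normalization 925 for gonadectomy, and the fit without animals 53 and 61 gave 7 by hormone and 251 for estradiol minus DHT in males. With 5 animals a group, a p that misses the threshold does not show that levels were equal.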
